A study of Rattus norvegicus with 16 samples.

Results

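A set of 439 transcripts was studied whose level in synovial tissue was highest in the knees of vehicle-treated rats that had been injected with monoiodoacetate (MIA). They were chosen from 46726 transcripts in the files, of which 26956 passed a filter on low counts. Levels are CPM, the reads of a transcript scaled to a common library size, with TMM factors that correct the totals for a few very abundant transcripts. A transcript became a member when its lowest MIA vehicle library lay above the highest of the other 12 libraries and its mean in MIA vehicle knees was at least 1 CPM, which held for 462 transcripts (1.71% of those that passed the filter). Of these, 23 were left out because their 8 MIA libraries, vehicle and inhibitor, all lay above the 8 contralateral libraries, and 0 because their 8 vehicle libraries all lay above the 8 inhibitor libraries. The members are thus 1.63% of the transcripts that passed the filter, and they were chosen from the same values that describe them here.

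The 16 libraries came from 4 groups of 4 rat knees. Each rat had received 2 mg of MIA in 50 µl of saline in 1 knee and 50 µl of saline in the contralateral knee, and the synovial membranes were collected after 4 weeks. Rats were treated with vehicle or with an inhibitor, which gave MIA vehicle, MIA inhibitor, contralateral vehicle and contralateral inhibitor knees, so that the contralateral knees too came from rats with an MIA-injected joint. The series title names fatty acid binding protein 5 as the protein inhibited, while the labels used here name no compound, dose, schedule, strain, sex or age. Whether replicates are different animals is not stated in the labels, so each p-value refers only to the spread among libraries, which may be technical in part.

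MIA blocks glycolysis in cartilage cells and is injected into joints to model osteoarthritis, with loss of cartilage, inflammation of the synovium and pain. The synovium is the lining of the joint, made of fibroblasts and macrophages over a layer with vessels, fat and nerve endings, and it releases cytokines and chemokines that sensitise those nerves. Fatty acid binding protein 5 is an intracellular carrier that moves fatty acids and endocannabinoids to enzymes and nuclear receptors. The files do not pair the Ensembl transcript identifiers with gene names, and 0 of the 47357 genes of the RefSeq table used here carried an Ensembl identifier. The members are therefore described by their values, and 4 are given by identifier. For the same reason markers of synovium, muscle, fat or blood cells were not analysed here, and in bulk tissue fewer cells of a type and less RNA per cell cannot be told apart.

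Libraries held 15614902 to 37063328 counts. The contralateral vehicle libraries stood apart: their 100 most abundant transcripts held 41.5% to 53.1% of the counts, against 25.7% to 34.1% in the other 12, and their TMM factors were 0.585 to 0.813, against 0.914 to 1.23. In a principal component analysis of log2(CPM + 1), the first component held 43.96% of the variance, and on it they scored -190.5 to -87.5 and the other 12 scored -14.0 to 84.3. The second component, with 16.5%, set 1 library of each group at -112 to -71.0 and the others at 9.35 to 55.0. These were replicate 1 of both vehicle groups and replicate 4 of both inhibitor groups. Their part in the membership was not tested beyond the runs without them that are given below.

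The margin that set the members apart was narrow for most of them. The lowest MIA vehicle library was above the highest other library by a median factor of 1.12 (quartiles 1.04 and 1.26). It was at least 1.5 times higher for 55 members, at least 2 times for 17 and at least 3 times for 3. Just inside the rule, the 3 members with the smallest margins had 43.85 against 43.84 CPM, 7.029 against 7.024 CPM and 2.044 against 2.042 CPM. Just outside it, 3 transcripts had a lowest MIA vehicle library of 14.53, 2.032 and 28.62 CPM and a highest other library of 14.54, 2.035 and 28.65 CPM. At this edge the rule thus separated values that were nearly equal.

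**Figure D1:**
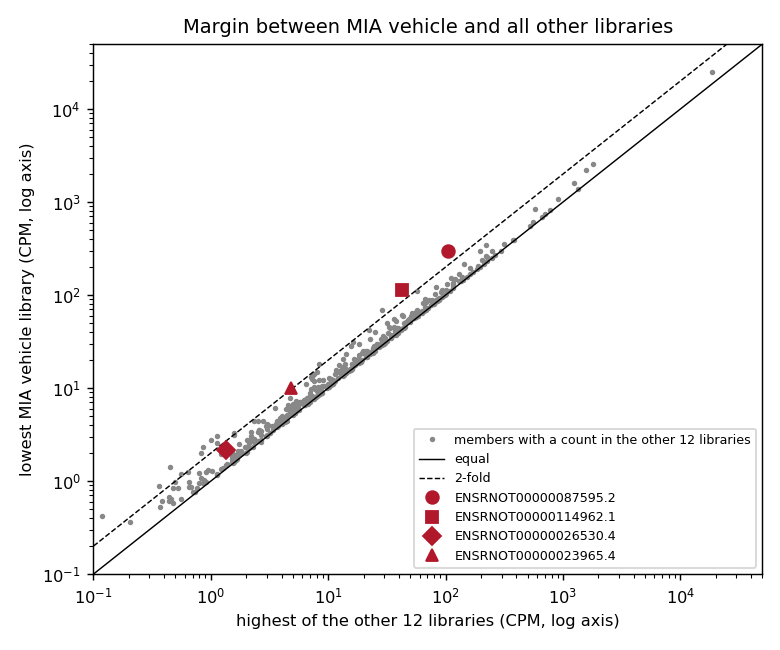
Lowest MIA vehicle library (y axis, CPM, log scale) against the highest of the other 12 libraries (x axis, CPM, log scale) for each member with a count outside MIA vehicle knees; the solid line marks equal values, the dashed line a 2-fold margin, and the 4 red symbols the transcripts given by identifier. Most points lie close above the solid line, and 17 members, 1 of them without a count in the other 12 libraries and so not drawn, have a margin of at least 2-fold.

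Which library was the highest of the other 12 differed between members. It was a MIA inhibitor library for 286 members, a contralateral inhibitor library for 133 and a contralateral vehicle library for 20. MIA inhibitor replicate 3 was the highest for 125 members and replicate 4 for 95, so these libraries came closest to the MIA vehicle level most often. The mean in MIA vehicle knees was a median of 2.05 times that in MIA inhibitor knees (quartiles 1.5 and 3.25), 2.59 times that in contralateral inhibitor knees (1.70 and 4.69) and 4.14 times that in contralateral vehicle knees (2.38 and 8.15). These are over all 439 members, and the 2, 5 and 6 members without a count in those groups were ranked as the largest ratios.

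By their group means, 292 members (66.5%) followed 1 order, from MIA vehicle through MIA inhibitor and contralateral inhibitor to contralateral vehicle. MIA inhibitor knees were second for 348 members and contralateral vehicle knees were lowest for 361. For 65 members (14.8%) the 4 contralateral vehicle libraries also lay below all other 12 libraries, a pattern found in 5.34% of the transcripts that passed the filter. The rule caps the 12 libraries of the other groups at the MIA vehicle level, which keeps transcripts with high contralateral vehicle values out, so no test is attached to these counts.

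Within the groups, the members did not have the same level in each library. The median member level, as log2(CPM + 1), was 3.96, 4.48, 4.64 and 4.31 in MIA vehicle replicates 1 to 4. It was 3.16, 3.32, 3.52 and 3.28 in MIA inhibitor, 2.90, 2.47, 2.44 and 2.21 in contralateral vehicle, and 2.75, 3.20, 3.19 and 2.91 in contralateral inhibitor libraries. MIA vehicle replicate 1 was closest to the other groups, and contralateral vehicle replicate 1 was the highest library of its group.

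MIA vehicle replicate 1 was the lowest of its group for 281 of the 439 members and the highest for 31. It lay under 1/2 of the lowest of the other 3 libraries for 29 members and under 1/10 of it for 3. Replicate 3 was the highest for 185 and replicate 2 for 160 members. In contralateral vehicle knees replicate 1 was the highest for 265 members and replicate 4 the lowest for 213. Both replicates 1 are among the 4 libraries apart on the second component. Because the lowest library sets the margin, MIA vehicle replicate 1 decided membership most often: without it the rule found 1406 transcripts, 414 of them among the 439.

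**Figure D2:**
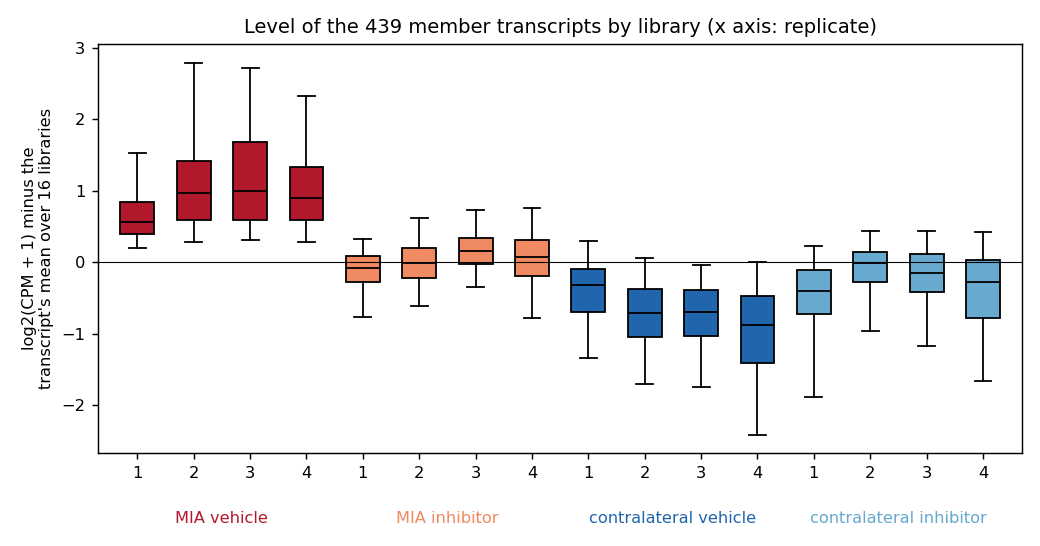
Level of the 439 members in each library, as log2(CPM + 1) minus the mean of the same transcript over the 16 libraries (y axis, log2 units), by group and replicate (x axis); boxes span the quartiles with the median as a line, and whiskers run from the 5th to the 95th percentile of members. The MIA vehicle medians run from 0.565 in replicate 1 to 1.00 in replicate 3, and the contralateral vehicle medians from -0.880 in replicate 4 to -0.315 in replicate 1.

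Together the members held 5.48%, 8.50%, 8.67% and 8.57% of the counts in MIA vehicle replicates 1 to 4. They held 3.16% to 4.43% in MIA inhibitor, 0.552% to 2.02% in contralateral vehicle and 2.29% to 3.28% in contralateral inhibitor libraries. Part of this was 1 transcript of 4687 bases, the most abundant member, which alone held 2.38%, 3.12%, 3.98% and 3.89% of the counts in MIA vehicle replicates 1 to 4. Without it the shares were 3.10% to 5.38%, 1.95% to 2.67%, 0.397% to 1.21% and 1.60% to 1.99% in the 4 groups in the same order. The shares of MIA vehicle libraries thus lay above those of the other groups with and without this transcript, as the rule requires of its members.

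The 4 transcripts given by identifier were fixed by rule. ENSRNOT00000087595.2 and ENSRNOT00000114962.1 had the largest margins on the log2(CPM + 1) scale, and ENSRNOT00000026530.4 and ENSRNOT00000023965.4 the largest falls from MIA vehicle to MIA inhibitor knees among the rest. The values of MIA vehicle knees that follow are those that made them members.

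ENSRNOT00000087595.2 (10374 bases) was at 316, 400.2, 350.2 and 299 CPM in MIA vehicle replicates 1 to 4, a mean of 341 ± 44.7 CPM (SD, n = 4). It was at 17.9, 58.6, 106 and 49.0 CPM in MIA inhibitor libraries. The contralateral vehicle libraries held 20.9, 35.5, 20.6 and 0 CPM, and the contralateral inhibitor libraries 11.9, 7.28, 7.42 and 18.9 CPM. The 4 MIA vehicle libraries were high and close to each other, and the other groups overlapped each other at lower levels. Its counts were not whole in any of the 15 libraries with a count, so Salmon shared its reads with other transcripts, and the 0 in contralateral vehicle replicate 4 may stem from this sharing, which was not tested.

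ENSRNOT00000114962.1 (5212 bases) was at 112 CPM in MIA vehicle replicate 1 and at 480.1, 439.95 and 438 CPM in replicates 2 to 4. MIA inhibitor libraries held 5.05, 21.3, 42.4 and 42.7 CPM. Contralateral vehicle libraries held 41.9, 39.6, 21.7 and 24.9 CPM, and contralateral inhibitor libraries held 4.89, 5.96, 10.5 and 9.26 CPM. MIA vehicle replicate 1 thus lay well below its group, and the contralateral inhibitor libraries did not overlap with the contralateral vehicle libraries, which were higher. Its counts were not whole in any of the 16 libraries either.

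ENSRNOT00000026530.4 is a short transcript of 487 bases and had the second highest level per length among the members, with a mean of 2661 TPM (reads scaled by transcript length and library size) in MIA vehicle knees. In MIA vehicle replicates 1 to 4 it was at 2.18, 380.2, 898 and 187 CPM. MIA inhibitor libraries held 0.113, 0.0727, 0.216 and 0.0885 CPM, contralateral vehicle libraries 0, 1.34, 0.823 and 0.0576 CPM, and the contralateral inhibitor libraries had no count. High values were thus found in 3 libraries, and MIA vehicle replicate 1 stood near the highest contralateral vehicle library.

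ENSRNOT00000023965.4 (3050 bases) had the same kind of profile. It was at 9.97, 399, 551 and 214 CPM in MIA vehicle replicates 1 to 4. MIA inhibitor libraries held 0.264, 0, 4.81 and 0.944 CPM, contralateral vehicle libraries 0.225, 2.83, 1.03 and 0 CPM, and contralateral inhibitor libraries 0.438, 0.340, 1.85 and 0 CPM. Again MIA vehicle replicate 1 lay between the other 3 libraries of its group and the rest. Its counts were whole in 92.3% of the libraries with a count, against 63.6% for ENSRNOT00000026530.4.

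**Figure D3:**
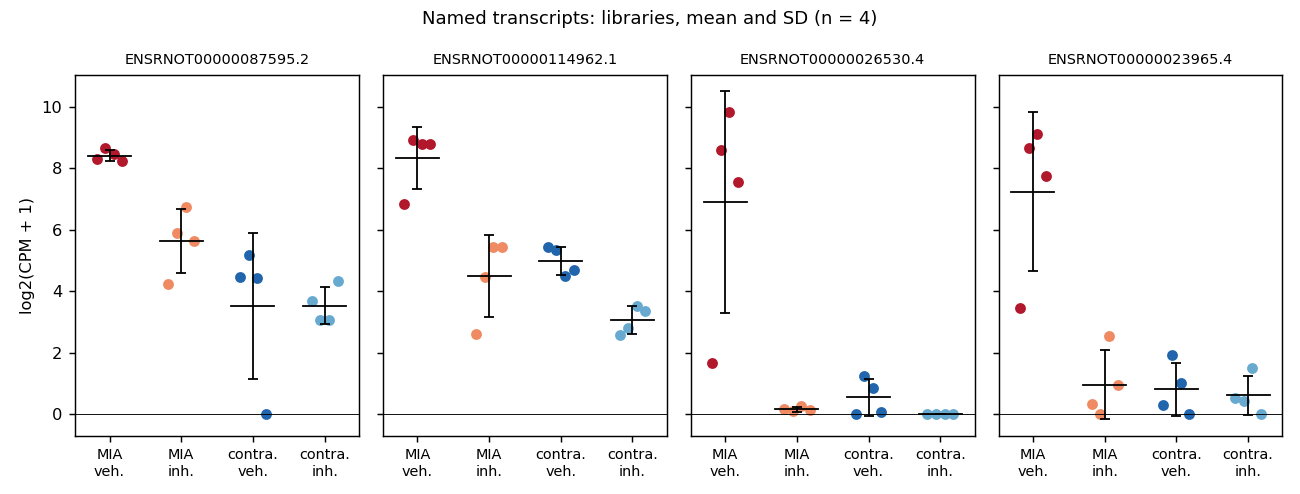
The 4 transcripts given by identifier: log2(CPM + 1) (y axis) of each library (points, replicates 1 to 4 from left to right) in the 4 groups (x axis; veh., vehicle; inh., inhibitor; contra., contralateral), with the mean as a line and the SD as bars (n = 4). MIA vehicle replicate 1 lies below the other 3 libraries of its group for ENSRNOT00000114962.1 (112 CPM), ENSRNOT00000026530.4 (2.18 CPM) and ENSRNOT00000023965.4 (9.97 CPM), but not for ENSRNOT00000087595.2 (316 CPM).

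A few members held most of the length-scaled signal. The 10 members with the highest TPM in MIA vehicle knees held 59.3% of the members' summed TPM there, and the transcript of 4687 bases alone held 31.7%, with a mean of 14144 TPM. This transcript was at 24715 to 34822 CPM in MIA vehicle, 7601 to 18581 CPM in MIA inhibitor, 2663 to 10016 CPM in contralateral vehicle and 5937 to 18143 CPM in contralateral inhibitor libraries. The latter 3 groups overlapped. The highest value of each was in its library apart on the second component, replicate 4 of both inhibitor groups and replicate 1 of contralateral vehicle knees. In MIA vehicle knees the library apart on it, replicate 1, was the lowest at 24715 CPM. MIA inhibitor replicate 3, not apart on it, was at 14544 CPM, above contralateral vehicle replicate 1.

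The member with the third highest TPM, of 2411 bases, was at 823, 2068, 1584 and 2847 CPM in MIA vehicle and at 364.5, 753, 650.5 and 779 CPM in MIA inhibitor replicates 1 to 4. It was at 509, 112, 42.3 and 31.1 CPM in contralateral vehicle and at 6.28, 70.4, 39.9 and 148 CPM in contralateral inhibitor replicates 1 to 4. In inhibitor-treated rats the MIA libraries of this member thus lay above the contralateral ones, and in contralateral vehicle knees replicate 1 was high. A transcript of 1397 bases, 11th by TPM, was at 61.3, 484, 560 and 246 CPM in MIA vehicle replicates 1 to 4, at 18.2 to 42.3 CPM in MIA inhibitor, at 3.51 to 13.6 CPM in contralateral vehicle and at 10.5 to 22.4 CPM in contralateral inhibitor libraries. These 3 members were picked for description after their values were seen.

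One member, of 6160 bases, had no count in the 12 libraries outside MIA vehicle knees. It was at 5.24, 1.39, 21.6 and 12.5 CPM in MIA vehicle replicates 1 to 4, and its counts were not whole. Against a floor of 3 counts per library, the most that a count of 0 allows at 95% confidence, its mean of 10.2 CPM was at least 101-fold higher than in MIA inhibitor, at least 70.8-fold higher than in contralateral vehicle and at least 79.9-fold higher than in contralateral inhibitor knees. These bounds cover counting error in the groups without a count and not the division of reads between transcripts. They also take the MIA vehicle mean as exact, although its libraries ran from 1.39 to 21.6 CPM.

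Members were spread over the range of abundance. In MIA vehicle knees 143 had a mean of 1 to 10 CPM, 218 of 10 to 100 CPM, 69 of 100 to 1000 CPM and 9 above 1000 CPM. As shares of the transcripts in the same bands these were 1.4%, 2.12%, 5.30% and 12.9%, so the rule kept a larger share of abundant transcripts. The lengths of members had a median of 3052 bases, against 2681 bases for all that passed the filter. Counts were whole in all libraries with a count for 94 members and in none for 190, and a count was found in each of the 16 libraries for 348 members. The share of libraries with a count in which it was whole had a median of 18.75% over members (upper quartile 93.75%). Over all that passed the filter it was 0% (upper quartile 50%). The reads of the 190 were divided with other transcripts, and whether members shared reads with each other was not tested.

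The change between the groups was estimated with edgeR's quasi-likelihood fit over all 26956 transcripts. The fit took all libraries as independent and did not pair the knees of a rat. In the comparisons that the rule used, these values are a description. Between MIA and contralateral knees of vehicle rats the members had a median log2 fold change of 2.05 (quartiles 1.249 and 3.02), against 0.26 for all tested transcripts. More than 2-fold higher were 368 of the 439 members, against 6850 of all 26956 tested. The background of calls at an adjusted p under 0.05 was 29.2% of all tested transcripts in this comparison and 15.9% for those higher in MIA knees, and 385 of the 439 members were called, all higher. The other 54 were not called although the libraries of the groups did not overlap, which was so for 17.2% of all tested in this direction.

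Between inhibitor and vehicle in MIA knees the median log2 fold change of members was -1.03 (quartiles -1.69 and -0.59), against 0.00 for all tested transcripts. With inhibitor 228 members were more than 2-fold and 77 more than 4-fold lower, against 2389 and 892 of all 26956 tested. In this comparison 0 members were called by edgeR (background 0% of all tested), with a smallest adjusted p of 0.0993. An unadjusted p under 0.05 was found for 288 members (65.6%, against 8.66% of all tested). The rule sets all 4 inhibitor libraries below all 4 vehicle libraries for each of the 439 members here, and over all tested transcripts this held for 4% in that direction and for 3.48% in the other. DESeq2 called 180 members (41%, against 2.97% of all tested) and limma-voom 6 (1.37%, against 0.0594% of all tested). Without MIA vehicle replicate 1 edgeR called 45 members (10.3%, against 0.647% of all tested). The adjusted p of ENSRNOT00000114962.1 was 0.00758 without that library and 0.0993 with it. For the interaction of knee and treatment 193 members were called, 192 with a smaller MIA change in inhibitor rats, and 1 with a larger one. The background was 9.9% called, 4% in the first direction and 5.89% in the second. Since the members were chosen for being high in 1 of the 4 groups, these counts say nothing beyond the choice.

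The remaining pair of comparisons did not involve MIA vehicle knees. The first asked whether the members also differed between MIA and contralateral knees in inhibitor-treated rats. With inhibitor the members were higher in MIA knees by a median log2 fold change of 0.23 (quartiles 0.05 and 0.57, median SE 0.38), against 0.00 for all tested transcripts, and 360 of the 439 had a positive estimate (82.0%, against 50.6% of all tested). None was called by edgeR's quasi-likelihood test (0 of 439, background 0.00371% of all tested), and 46 members (10.5%) had an unadjusted p under 0.05, against 5.38% of all tested. DESeq2 called 13 members, all higher in MIA knees (2.96%, against 1.26% of all tested), and limma-voom called 0 of members and 0 of all tested. The 4 MIA inhibitor libraries all lay above the 4 contralateral inhibitor libraries for 27 members (6.15%, background 2.57%) and below them for 0 (background 1.44%). The rule bears on this comparison too, since it left out transcripts whose 8 MIA libraries lay above the 8 contralateral ones. It also caps both inhibitor groups below the lowest MIA vehicle library of each member. The shares of members thus cannot be told apart from the choice of members.

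ENSRNOT00000087595.2 had a log2 fold change of 2.35 ± 0.95 (SE) between MIA and contralateral knees of inhibitor rats, with an edgeR adjusted p of 0.821. For ENSRNOT00000114962.1 it was 1.87 ± 0.58 (SE), with an edgeR adjusted p of 0.585. The adjusted p over the alternatives without 1 library was 0.288 to 1.00 and 0.307 to 1.00 for these transcripts. Neither difference passed the test, though both estimates were above 2-fold. ENSRNOT00000026530.4 was at or under 0.216 CPM in the 8 inhibitor libraries and ENSRNOT00000023965.4 at or under 4.81 CPM.

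The second comparison set inhibitor against vehicle in contralateral knees, which had received saline. Here 100 of the 439 members were called (22.8%), close to the background of 23.9% of all tested transcripts. Of these, 96 were higher with inhibitor (background 12.1%) and 4 lower (background 11.8%), and the median log2 fold change was 0.56 (median SE 0.38), against 0.28 for all tested. The cap of the rule kept transcripts with high contralateral vehicle values out, so the direction cannot be told apart from the choice of members. The 96 that were higher were also called higher in MIA than in contralateral knees of vehicle rats, a comparison that shares the 4 contralateral vehicle libraries. In that comparison 385 of the 439 members were called higher (background 15.9%). The rule also sets the MIA vehicle libraries of each member above its contralateral inhibitor libraries, so the overlap says nothing beyond the choice of members. ENSRNOT00000114962.1 was 1 of the 4 that were lower with inhibitor, at -2.07 ± 0.58 (SE) on the log2 scale, with its 4 inhibitor libraries below the 4 vehicle libraries (edgeR adjusted p = 0.0203). For 74 members the 4 inhibitor libraries lay above the 4 vehicle libraries (16.9%, background 11.3%), and for 5 below (1.14%, background 12.4%). Its adjusted p was 0.00645 to 0.0600 over the alternatives without 1 library, and it was above 0.05 without contralateral inhibitor replicate 1 (0.0600) or replicate 2 (0.0598). ENSRNOT00000087595.2 was not called (-0.76 ± 0.92 (SE), edgeR adjusted p = 0.594).

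The number of members called in contralateral knees rested on single libraries. Leaving out replicate 2 or 4 of contralateral vehicle knees gave 36 or 38 calls (8.2% or 8.66% of members, against 15.2% or 14.2% of all tested), and leaving out replicate 1 of that group gave 163 (37.1% against 32.1%). It was 60 when replicate 2 of contralateral inhibitor knees was dropped (13.7% against 16.5%) and 29 with the 8 libraries fitted alone (7.4% against 15.1%). The share of all tested transcripts called thus moved in the same direction as that of the members in these fits. Scaled by DESeq2 size factors, 69 members were called higher and 7 lower (17.3%, against 23% of all tested), and by library totals alone 244 and 1 (55.8% against 40.3%). These scalings moved the median of all tested transcripts from 0.28 to 0.12 and 0.92, and relative to that median the members were higher by 0.29, 0.28 and 0.27. A scaling factor shifts all transcripts of a library alike, so these differences stay nearly equal by arithmetic. Their likeness therefore says nothing about the members.

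**Figure D4:**
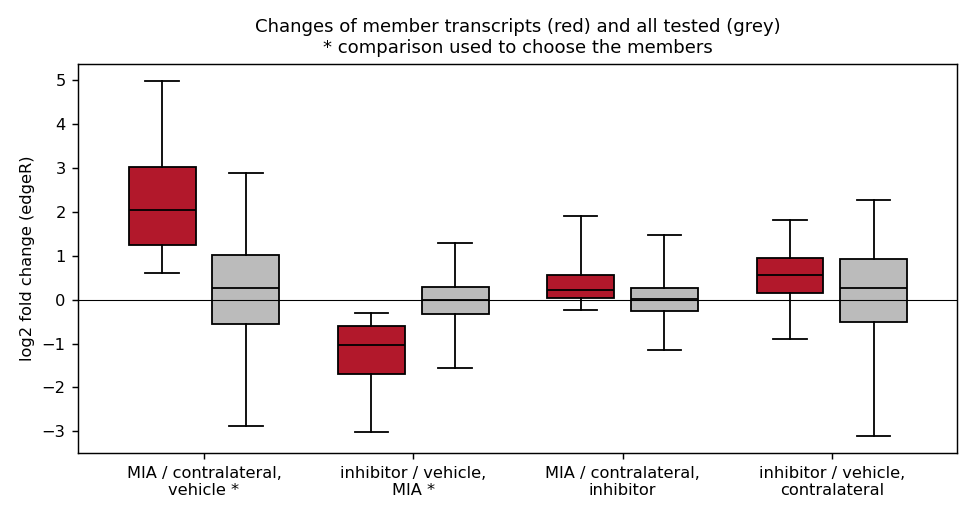
Log2 fold changes (y axis, edgeR estimates) of the 439 members (red) and of all 26956 tested transcripts (grey) in 4 comparisons (x axis); boxes span the quartiles with the median as a line and whiskers run from the 5th to the 95th percentile, and a star marks the comparisons that chose the members. In the comparisons without a star the medians of members were 0.23 and 0.56, against 0.00 and 0.28 for all tested.

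Membership depended on how the libraries were scaled, mostly for members with narrow margins. With DESeq2 size factors the rule found 441 transcripts, 405 of them among the 439. With the deposited TPM values it found 445, of which 179 were shared, which is 40.8% of the members and 40.2% of the transcripts found with TPM. With library totals alone it found 283, of which 179 were shared. Of the 199 members with a margin under 1.1-fold, 35 (17.6%) were found again with TPM, and of the 55 with a margin of at least 1.5-fold, 47 (85.5%) were. Members with wide margins were thus found again more often, and the 4 given by identifier each had a margin of at least 1.5-fold.

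Without 1 library at a time, 285 members (64.9%) met the whole rule in each of the 16 runs. Without regard to the sets that the rule leaves out, 394 (89.7%) kept their lowest MIA vehicle library above the rest in each run. Without the 4 libraries apart on the second component the rule found 1613 transcripts, of which 362 were among the 439. Without the contralateral vehicle libraries, where neither set can be left out, 649 transcripts were highest in MIA vehicle knees, 429 of them members. Fewer libraries make the rule easier to meet, so larger numbers were found in part by construction.

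**Figure D5:**
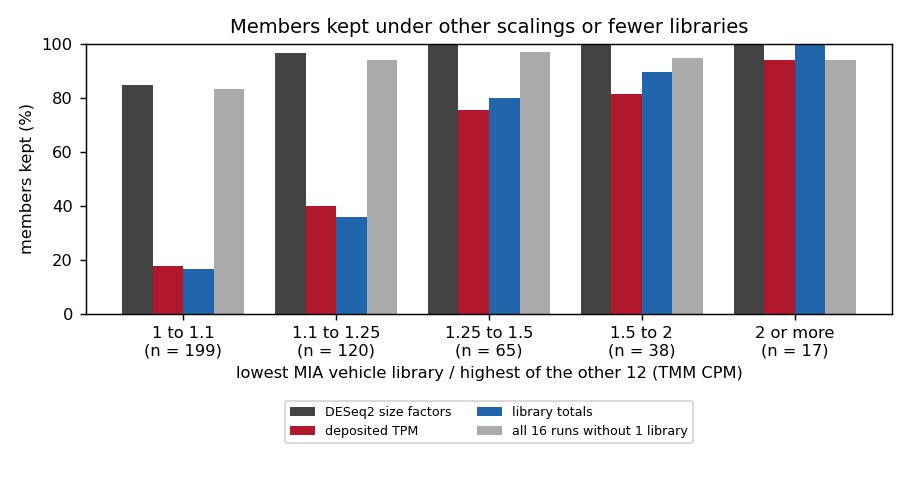
Share of members (y axis, %) found again by the rule under DESeq2 size factors, deposited TPM or library totals, or kept above all other libraries in each of the 16 runs without 1 library, by their margin between the lowest MIA vehicle and the highest other library (x axis, fold; n, members). With TPM the share was 17.6% for margins under 1.1-fold and 94.1% for margins of 2-fold or more.

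The same rule with another group in the place of MIA vehicle found 24 transcripts highest in MIA inhibitor knees, 100 in contralateral inhibitor knees and 2518 in contralateral vehicle knees. The 439 of MIA vehicle knees were thus more than those of either inhibitor group and fewer than those of the contralateral vehicle libraries, which stood apart in composition. These numbers moved with the library apart on the second component of each group: without it they were 159 for MIA inhibitor, 392 for contralateral inhibitor and 3942 for contralateral vehicle knees, beside the 1406 for MIA vehicle knees.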

How the data were processed

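Total RNA of rat synovial tissue was sequenced after a directional library preparation, per the labels' protocols. Per the submitters' processing notes, the tools named are Salmon 1.4.0, fastp 0.20.1 and DESeq2 1.30.0, with the build mRatBN7.2. The deposited expected counts per transcript are the authors' Salmon estimates and need not be whole. Deposited beside them are TPM values and, per the file headers, the length and effective length of each transcript in bases.

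Counts were rounded, filtered with filterByExpr over the 4 groups (99.7% to 99.9% of counts kept) and scaled by TMM. Comparisons used the quasi-likelihood test of edgeR 4.0.16 in R 4.3.3 (two-sided, robust dispersions), fitted on the means of the 4 groups in 16 libraries, with Benjamini-Hochberg adjustment over all tested transcripts at 0.05, checked on simulated data. DESeq2 1.42.0, limma-voom (limma 3.58.1), other scalings, no filter, a replicate block, fewer libraries and other thresholds were alternatives. A SE is the absolute log2 change over the root of F. Counts were called whole within 1e-06.

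Same-numbered knees of inhibitor rats deviated from their group means together (correlations 0.227 to 0.617, above 0.1 in every pair), so the numbers were taken to pair them, although replicate 2 correlated best with another number. In vehicle rats these were 0.0117 to 0.217, and between treatments -0.310 to 0.375, and no pairing was taken. The 0.375 was between replicate 2 of both MIA groups, which are different rats, so such a value does not by itself show a pair. The 0.617 joined replicate 4 of both inhibitor groups, which are apart on the second component. Whether this raised the correlation was not tested, so the pairing in inhibitor rats is an assumption. Replicates 1 and 3 of MIA vehicle knees did correlate best with their own number, so pairing in vehicle rats stays unsettled. The main fit used no block in any group. With the block 0 members were called between knees of inhibitor rats, as without it. In vehicle rats 373 were called with it (85%, against 34% of all tested) and 385 without it (87.7%, against 29.2% of all tested).

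The 4 identifiers are the 2 members with the largest difference in log2(CPM + 1) between the lowest MIA vehicle and the highest other library, and the 2 others with the largest fall in mean log2(CPM + 1) to MIA inhibitor. The members, lists and this rule were chosen with earlier results of these data known. Planned lists of inflammation, chemokine, pain, matrix, lipid, proliferation and cell type genes were not analysed here, for lack of gene names. No sequences were printed, as identifiers could not be matched.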

Additional observations from a re-analysis of the deposited data

Results flagged for a closer look

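The share of counts held by the members was 5.48% in MIA vehicle replicate 1, far from the 8.50% to 8.67% of the other 3 libraries of that group. ENSRNOT00000114962.1 was at 112 CPM in the same library, against 438 to 480.1 CPM in the others. This library is 1 of the 4 apart on the second principal component. Such gaps were looked for in 24 sets of 4 libraries (4 transcripts and 2 summary measures in 4 groups), and chance gives about 1 in 20. The share and this transcript were the only ones found, so they may have arisen by chance. Both are from the same library, and the counts of the transcript are part of the share, so they are not independent. Over all members, contralateral vehicle replicate 1 lay far above its group for 38 and MIA vehicle replicate 3 for 18, while the other 14 libraries lay far above for 1 to 8 members each. MIA vehicle replicate 1 lay far below its group for 6 members, beside 7 and 6 for replicates 1 and 4 of MIA inhibitor knees. The rule keeps only transcripts in which MIA vehicle replicate 1 lies above every library of the other groups. Transcripts in which it falls far are thus mostly left out, so the count of 6 cannot show whether this library stands out.

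The change between MIA and contralateral knees differed between inhibitor and vehicle rats for 193 members by the interaction test. The choice of members used the same values, so this count is a description.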

How the results depend on the processing

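The median log2 changes of the members kept their direction under the alternatives run. Where MIA vehicle knees are compared with another group the rule fixes that direction, and the interaction uses the same values. The totals that follow include these comparisons. A percentage of all tested given beside a count of members is the share of all tested transcripts called by the same fit. Of the counts and medians recomputed, 21 moved beyond their limit (1.5 times for a count, the spread between libraries for a median) under alternatives other than leaving out 1 library, and 86 did not. With a margin of 1.5-fold required, 55 members were found. With library totals alone, chosen after seeing the data, 283 members, 40 transcripts highest in MIA inhibitor and 1455 in contralateral vehicle knees were found, 245 members were called between inhibitor and vehicle in contralateral knees, and the medians there, in vehicle rats and for the interaction were 1.19, 2.66 and -2.19. With TPM 1199 transcripts were highest in contralateral vehicle knees. Without the 4 libraries apart on the second component, also chosen after seeing the data, 1613 members were found, 281, 5128 and 520 transcripts were highest in MIA inhibitor, contralateral vehicle and contralateral inhibitor knees, and 3 members were called between knees of inhibitor rats (0.331% of all tested) and 72 between treatments in MIA knees (1.34% of all tested). DESeq2 called 13 and 180 in these comparisons (1.26% and 2.97% of all tested), limma-voom 6 in the latter (0.0594%), and the fit without contralateral vehicle libraries 1 in the former (0.0192%). In contralateral knees 54 members were called with the replicate block and 29 with the 8 libraries fitted alone (16.2% and 15.1% of all tested, and 40.3% with library totals). There the block joins same-numbered libraries of vehicle and inhibitor rats, which are different rats, so it is not a pairing by animal. The block changed no other count by over 1.5 times. The cause of these differences was not tested.

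Leaving out 1 library gave 410 to 1406 members, and 22 to 159, 2511 to 3942 and 95 to 392 transcripts highest in MIA inhibitor, contralateral vehicle and contralateral inhibitor knees. Members called numbered 0 to 1 (MIA against contralateral) in inhibitor rats, 317 to 395 in vehicle rats, 36 to 163 (inhibitor against vehicle) in contralateral knees, 0 to 45 in MIA knees and 109 to 261 for the interaction, with medians of 0.17 to 0.34, 1.77 to 2.33, 0.34 to 0.73, -1.10 to -0.97 and -1.88 to -1.35 on the log2 scale. Over these runs the share of all tested transcripts called was up to 0.0215%, 20.6% to 34.1%, 14.2% to 32.1%, up to 0.647% and 5.21% to 19.6% in the same order. The interaction count was lowest without contralateral vehicle replicate 2 and highest without replicate 1 of that group. With 4 libraries per group the median SE of a member's log2 change was 0.38 to 0.54, depending on the comparison, which limits the changes that could be called.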
